A study of Mus musculus with 17 samples.

Results

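The sites described here are 4636 genomic regions that MYC occupied in macrophages after 2 h and still after 4 h of interleukin 4 (IL4), and that appeared in neither of the MYC peak lists made when interferon gamma (IFNg) was given together with IL4. They were selected on the MYC peak lists themselves: a peak of the IL4 2 h list was taken if no untreated MYC peak, no IFNg+IL4 2 h peak and no IFNg+IL4 4 h peak overlapped it by 1 bp or more, and an IL4 4 h peak did. The rule took 4636 of 13211 IL4 2 h peaks, a share of 35.1%, after removal of peaks that overlap an input peak. MYC with IFNg alone was not analysed here, so the absence concerns the combination of the cytokines.

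The cells were bone marrow-derived macrophages of the C57BL/6 strain, differentiated in medium conditioned by L929 cells and used on day 7 of differentiation. The sample titles label the cells of the MYC, IRF1, JUNB and CEBPB libraries as wild type. MYC was mapped by chromatin immunoprecipitation and sequencing (ChIP-seq) in untreated cells and after 2 h or 4 h of IL4 (10 ng/ml) or of IL4 (10 ng/ml) with IFNg (100 ng/ml). At the same doses, STAT6 was mapped at 2 h with IL4 and with IFNg+IL4. IRF1, JUNB and CEBPB were mapped without treatment, at 4 h with IFNg and at 4 h with IFNg+IL4. Each of these groups was 1 library, so no p-values were computed, every comparison describes these libraries, and the intervals in parentheses (exact Clopper-Pearson, 95%) cover counting error only.

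MYC is a basic helix-loop-helix leucine zipper protein that binds DNA as a dimer with MAX, preferring the E-box CACGTG, and in proliferating or growing cells it occupies many active promoters, where it promotes ribosome production, metabolism and cell growth. Alternative activation by IL4 acts through STAT6, which binds palindromic elements with TTC and GAA as its arms. IFNg drives classical activation through JAK kinases and interferon regulatory factors such as IRF1, and the programs set off by these cytokines are known to restrain each other.

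The promoters of 7 genes show the sequence under such sites. Among 91 genes named by rule, 42 had a site absent with IFNg+IL4 whose summit fell in the promoter window (250 bases before to 50 bases after a RefSeq gene start). Of these, 7 held CACGTG before the start, and 3 of the 14 whose site also carried a STAT6 peak with IL4 held TTC and GAA 4 bases apart. Each line gives 120 bases before the start on the gene's strand (RefSeq, GRCm38.p6), with the E-box in capitals in the first 4 and the STAT element in capitals in the last 3.
Gdpgp1, chr7:80232773-80232892, plus strand: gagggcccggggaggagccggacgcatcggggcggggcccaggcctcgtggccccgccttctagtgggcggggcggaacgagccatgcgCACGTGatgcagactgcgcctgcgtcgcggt
Timm8a1, chrX:134541801-134541920, minus strand: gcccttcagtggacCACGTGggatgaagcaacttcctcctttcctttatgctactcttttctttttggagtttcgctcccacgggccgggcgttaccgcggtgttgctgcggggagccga
Gadd45b, chr10:80929849-80929968, plus strand: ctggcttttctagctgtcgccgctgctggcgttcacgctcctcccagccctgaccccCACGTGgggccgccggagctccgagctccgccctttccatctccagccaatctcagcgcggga
Inf2, chr12:112588647-112588766, plus strand: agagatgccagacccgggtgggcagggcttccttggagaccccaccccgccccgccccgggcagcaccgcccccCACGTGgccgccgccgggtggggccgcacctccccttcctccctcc
Tnfaip3, chr10:19015541-19015660, minus strand: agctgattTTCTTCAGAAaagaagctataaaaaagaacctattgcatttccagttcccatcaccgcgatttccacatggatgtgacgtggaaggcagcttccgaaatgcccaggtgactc
Hk3, chr13:55021432-55021551, minus strand: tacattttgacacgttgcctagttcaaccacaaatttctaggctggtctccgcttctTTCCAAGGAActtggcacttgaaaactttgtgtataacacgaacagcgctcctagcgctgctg
Pdcd1lg2, chr19:29410780-29410899, plus strand: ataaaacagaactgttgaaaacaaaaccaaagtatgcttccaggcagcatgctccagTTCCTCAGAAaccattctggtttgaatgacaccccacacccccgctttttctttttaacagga

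At the Gdpgp1 promoter, whose gene encodes a phosphorylase of GDP-D-glucose, the MYC peak reached 33 fragments at its summit after 2 h of IL4 and 39 after 4 h. It was listed in none of the untreated and IFNg+IL4 libraries, and no peak of another factor overlapped it. The peak at Timm8a1, which encodes a chaperone of mitochondrial protein import, reached 13 fragments at 2 h and 15 at 4 h. At Inf2, the gene of an actin-assembling formin, the summit held 19 and 18 fragments. The peak at Gadd45b, a stress-induced gene, reached 17 and 20 fragments and was shared with STAT6 in both of its libraries and with CEBPB in its libraries with IFNg and IFNg+IL4. The promoter peaks with a STAT element held between 12 and 17 fragments. The site at Tnfaip3, which encodes the NF-kB inhibitor A20, held 15 fragments at 2 h and 13 at 4 h. The site at Hk3, a myeloid hexokinase gene, held 13 and 16, and the one at Pdcd1lg2, the gene of a ligand of the inhibitory receptor PD-1, 12 and 17. Rounded down to whole fragments, the Pdcd1lg2 peak at an unchanged signal would have narrowly missed both IFNg+IL4 lists. It was expected to give 6.57 fragments at 2 h and 6.44 at 4 h, and at most 6 remain unlisted at each time. At these 3 promoters STAT6 was listed with IL4 and also with IFNg+IL4, while the absence of MYC was fixed by the rule. At an unchanged signal the Tnfaip3, Hk3, Timm8a1 and Inf2 peaks would have been listed at 2 h but not at 4 h. At 4 h the fragments expected were 4.92, 6.06, 5.68 and 6.82 in this order, and at most 6 remain unlisted.

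The fragments at a summit were recovered from the authors' fold enrichment and −log10 p, which together fix the number of fragments and the expected background of a peak. In all 5 MYC lists a whole number of fragments matched the deposited −log10 p of 100.0% of peaks within 0.001. The lists held 495 peaks untreated, 13211 and 9645 with IL4 (2 h, 4 h), and 3034 and 3402 with IFNg+IL4 (2 h, 4 h). The depth of these libraries relative to the input was 0.555, 0.573, 0.876, 0.329 and 0.368 in the same order. The libraries with IFNg+IL4 were thus the shallowest: by the genome background of the lists they had 0.547 times (2 h) and 0.379 times (4 h) the depth of the IL4 library of the same time.

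The sites absent with IFNg+IL4 were one outcome among the MYC sites gained with IL4. Of 13211 IL4 2 h peaks, 12740 had no untreated peak, and 7863 of these also had an IL4 4 h peak. Of the 7863 gained and sustained sites, 4636 (59.0%) were absent from both IFNg+IL4 lists. Another 1449 were listed with IFNg+IL4 at both times and are called retained sites. A further 1778 were listed at 1 time, 756 of them at 2 h and 1022 at 4 h, and are called partly retained. The 4677 IL4 2 h peaks with no counterpart in any of the other 4 MYC lists serve as transient sites.

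The sites absent with IFNg+IL4 were the weaker part of the gained and sustained sites. Their summits held 15 fragments in the median at 2 h (range 6 to 44), against 29 at retained, 20 at partly retained and 12 at transient sites. At 4 h the median was 17 fragments, against 31 at retained sites. The peaks were also narrower, 236 bp in the median against 488 bp at retained sites. When all gained and sustained sites were ranked by their IL4 2 h −log10 p and cut into 10 classes of equal size, the share absent with IFNg+IL4 was 91.7% in the weakest class, 72.9% in class 5 and 3.81% in the strongest. These values come from the lists that chose the sites and are given as a description.

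**Figure D1:**
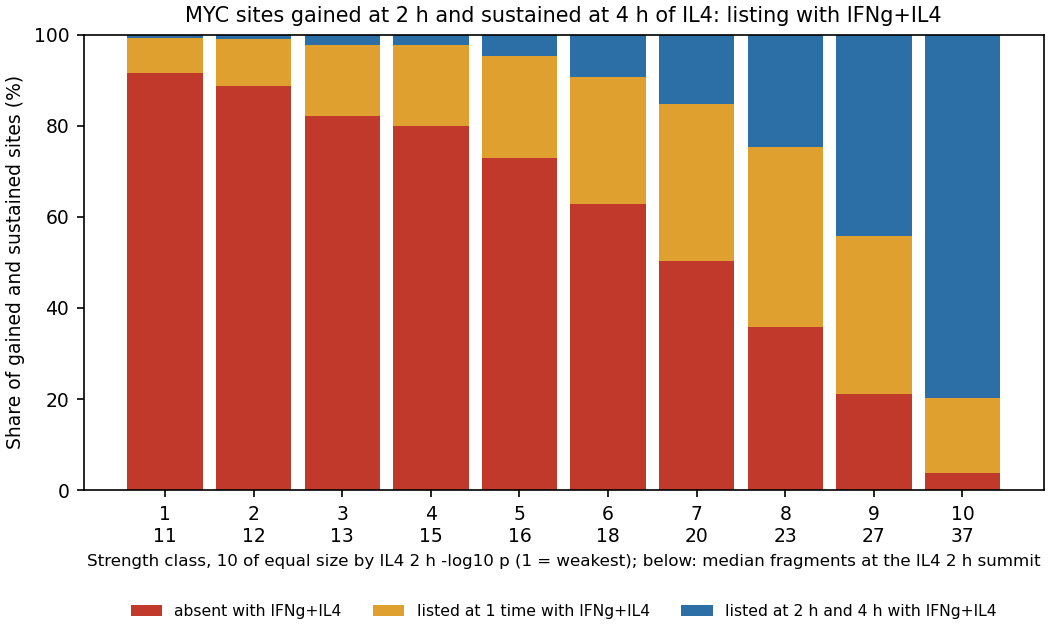
Gained and sustained MYC sites in 10 classes of equal size by IL4 2 h −log10 p (x axis, weakest first, with the median number of fragments at the summit below) and the percentage of each class by listing with IFNg+IL4 (y axis, stacked bars). The share absent with IFNg+IL4 declines from 91.7% in the weakest class to 3.81% in the strongest, where 79.8% were listed at both times.

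The depth of the IFNg+IL4 libraries limits what an absence from their lists shows. For each site the IL4 fragments were scaled by the ratio of library backgrounds, which gives the fragments expected with IFNg+IL4 at an unchanged signal. These were rounded down to whole fragments and set against the fewest that would have been listed at the site's own background. Of the sites absent with IFNg+IL4, 656 at 2 h and 1035 at 4 h fell short by 1 whole fragment, so the shares that follow depend on the rounding. At an unchanged signal 3451 of the 4636 sites (74.4%) would have been listed in the IFNg+IL4 2 h library, but only 1423 (30.7%) in the 4 h library. Both lists would have held 1245 sites (26.9%), and neither would have held 1007 (21.7%). For retained sites these shares were 99.4% at 2 h and 91.0% at 4 h. The median site absent with IFNg+IL4 was expected to give 8.21 fragments at 2 h, where 7 were needed, and 6.44 at 4 h, where 7 were needed. These shares depend on the measure of depth. With depth taken from the most common step of the input background, the IFNg+IL4 libraries had 0.575 times (2 h) and 0.420 times (4 h) the depth of the IL4 libraries. Then 78.0% of the sites absent with IFNg+IL4 would have been listed at 2 h, 44.8% at 4 h, 38.9% at both times and 16.2% at neither.

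**Figure D2:**
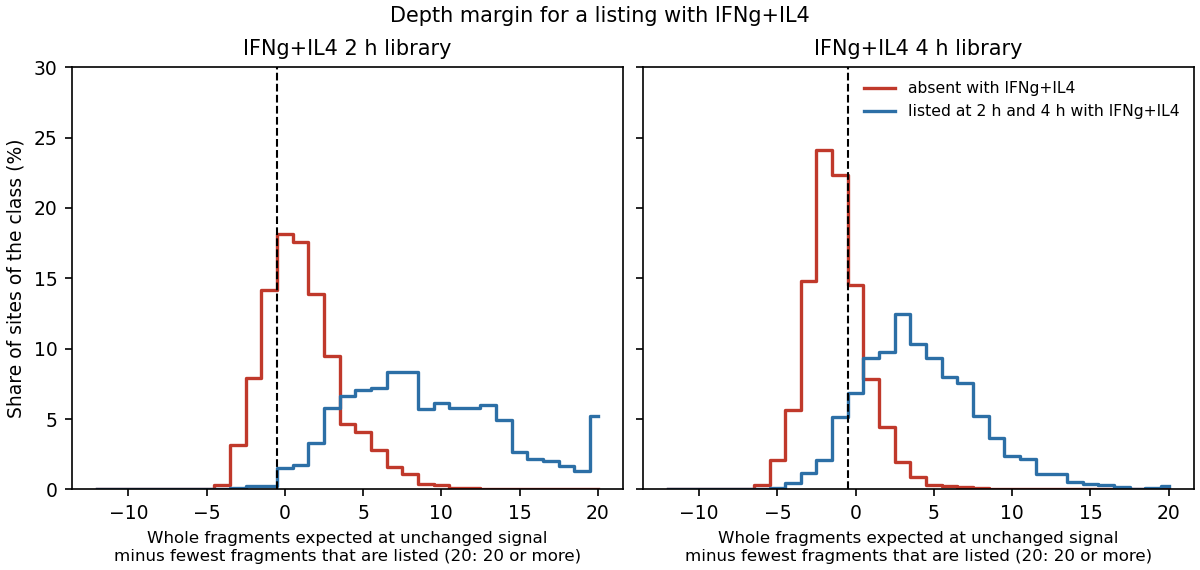
Whole fragments expected in the IFNg+IL4 libraries at unchanged MYC signal minus the fewest that are listed (x axis) against the percentage of sites (y axis), for sites absent with IFNg+IL4 and retained sites; the dashed line separates sites too weak to be listed (left) from listable ones. At 4 h only 30.7% of the sites absent with IFNg+IL4 lie right of the line, against 91.0% of the retained sites.

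The absence bounds the fragment count with IFNg+IL4 tightly at few sites. The bound is the most fragments that remain unlisted over the fragments expected at an unchanged signal. It leaves out counting error in both libraries, and the rule chose the sites on the same lists. This bound was under 0.5 for 569 sites (12.3%) at 2 h and for 59 (1.27%) at 4 h, and for 26 sites at both times. With depth from the input step these counts were 735 at 2 h, 122 at 4 h and 64 at both times. Where MYC peaks were listed in both conditions, the signal over background with IFNg+IL4 was 0.752 times that with IL4 at 2 h (median of 1449 retained sites, quartiles 0.609 and 0.913) and 1.11 times at 4 h (0.928 and 1.35). Only sites that reached the IFNg+IL4 list enter such ratios, so low values are left out, above all at weak sites. At the weaker partly retained sites the medians were 0.913 at 2 h (756 sites) and 1.26 at 4 h (1022 sites). At sites that already had an untreated MYC peak the medians were 0.694 (451 sites) and 1.06 (452 sites). Had the sites absent with IFNg+IL4 followed these latter ratios, 25.9% would have been listed at 2 h, 40.5% at 4 h and 16.9% at both times.

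Relative to library background, the MYC signal was lower at 4 h than at 2 h of IL4 at most of these sites, as at retained sites. The median fragments themselves were 15 at 2 h and 17 at 4 h. The 4 h library had 1.62 times the background of the 2 h library, or 1.53 times by the input step. Each time was 1 library, and the sites were drawn from the 2 h list. The 4 h signal over background was 0.692 times the 2 h signal in the median (5th to 95th percentile 0.447 to 1.09), against 0.646 at retained sites, and it was lower at 4 h at 4227 of 4636 sites (91.2%), against 97.0% of retained sites. The summits of both times lay 43 bp apart in the median and within 100 bp at 80.8% of sites. At 99 sites (2.14%) the IL4 4 h peak was wider or shifted and itself overlapped an IFNg+IL4 peak that the IL4 2 h peak did not reach, and 340 sites (7.33%) had an IFNg+IL4 peak within 500 bp. Among the 3724 sites with summits within 100 bp and no such overlap, 27.8% would have been listed in both IFNg+IL4 libraries at an unchanged signal.

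At the 12 strongest sites absent with IFNg+IL4, the expected fragments exceeded what remains unlisted at 2 h in every case and at 4 h in all but the site in Ubap2 (8.71 expected, at most 9 unlisted). The strongest was in Gnas, which encodes the stimulatory G protein alpha subunit, 360 bp from a gene start at chr2:174327181-174327490. It held 40 fragments at 2 h and 26 at 4 h of IL4 and ranked 350 in the IL4 2 h list. At an unchanged signal 21.9 fragments were expected with IFNg+IL4 at 2 h, where at most 4 remain unlisted, and 9.85 at 4 h, where at most 6 do. IRF1 was listed at this site in all 3 of its libraries.

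Of these 12 sites, 5 had their summit within 1 kb of a gene start with no peak of another factor. They belonged to Sfxn1, a mitochondrial serine transporter (37 fragments at 2 h, 24 at 4 h), to Gdpgp1, shown above, and to Nup50, a nuclear pore gene (44 and 39). The others belonged to Ubap2, which encodes a ubiquitin-associated protein (38 and 23), and to Nrf1, a transcription factor for nuclear genes of the mitochondria (31 and 27). At Nrf1, chr6:30047883-30048148, the summit lay 7 bp from the start, 17.0 fragments were expected at 2 h with IFNg+IL4 and at most 5 remain unlisted. The site in Slc6a9, a glycine transporter gene, held 33 and 26 fragments 1236 bp from a start and also had no other factor. Those in or near Elf2, an ETS factor gene (43 and 36), and Mbp (34 and 27) each carried STAT6 in both STAT6 libraries. The site 13.9 kb from Spty2d1, a histone chaperone gene, held 35 and 22 fragments and overlapped a JUNB peak with IFNg+IL4.

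At the other end, the weakest sites were barely within the IL4 list. The last by −log10 p, in Bag4, which encodes a regulator of HSP70, held 9 fragments at 2 h and ranked 13205 of 13211, though its IL4 4 h peak held 28. The next, in Akt1s1, which encodes an mTORC1 subunit, held 9 and 15. The weakest retained site ranked 12625 and also held 9 fragments at 2 h, so sites of equal height fell on both sides of the rule.

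By fragment counts, with counting error left out, 26 sites had a bound under 0.5 at both times. They included the Gdpgp1, Nrf1 and Mbp sites. Others with a summit within 1 kb of a start were those of Cdk11b, a cyclin-dependent kinase gene (32 fragments at each time), and Eif2ak1, the heme-regulated kinase of eIF2 (30 and 29). Ogt, the O-GlcNAc transferase (22 and 23), Nfyc, a subunit of the CCAAT-binding factor NF-Y (23 and 33), and Myh9, non-muscle myosin (22 and 32), did so too. The IL4 4 h peak at Nfyc is one of those that reached an IFNg+IL4 peak. A site 4069 bp from the start of Ifngr1, the ligand-binding chain of the IFNg receptor, held 31 and 38 fragments. There 17.0 and 14.4 were expected with IFNg+IL4, at most 6 remain unlisted at each time, and STAT6 was listed with IL4 but not with IFNg+IL4. These genes were picked from the 26 sites after their values were seen.

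Position was not used by the rule. Of the 3779 sites absent with IFNg+IL4 whose nearest gene has a known start, 2359 or 62.4% (60.9 to 64.0%) lay within 1 kb of a start, against 60.7% of all IL4 2 h peaks. The share was 75.6% (73.1 to 78.0%) at retained sites, 67.9% (65.4 to 70.3%) at partly retained sites and 50.3% (48.7 to 52.0%) at transient sites. In each of 5 classes of peak strength the share at retained sites was higher than at the sites absent with IFNg+IL4. In the strongest class it was 76.9% of 796 against 61.5% of 156, and in the weakest 80.0% of 10 against 60.5% of 1155. Away from starts, 22.1% of the sites absent with IFNg+IL4 lay inside a gene and 15.5% outside genes, against 13.5% and 10.9% of retained sites. Exons, introns and UTRs were not resolved, since only gene spans and starts were used.

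**Figure D3:**
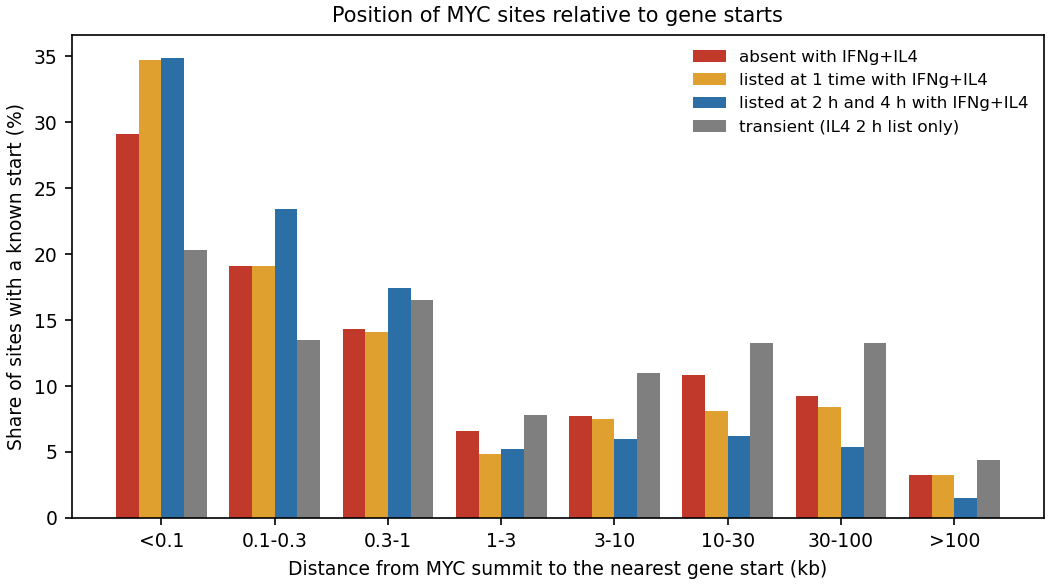
Distance from the MYC summit to the nearest gene start in kb (x axis, classes of growing width) and the percentage of sites with a known start (y axis) for 4 outcomes. Of the sites absent with IFNg+IL4, 29.1% lie within 0.1 kb of a start, between the retained (34.9%) and the transient sites (20.3%).

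The promoter sequences differed by outcome in the same order. CACGTG occurred in 201 of 1567 promoters with the summit of a site absent with IFNg+IL4, 12.8% (11.2 to 14.6%), against 7.84% of all 21238 promoter windows of 300 bases and 5.76% of those without an IL4 2 h summit. The share was 29.1% (25.5 to 33.0%) at retained, 17.7% at partly retained and 9.88% at transient sites. Promoters with a MYC summit were richer in G and C (median 64.0% at sites absent with IFNg+IL4, 54.0% without a summit). In all 5 classes of GC content the share with CACGTG was lower at sites absent with IFNg+IL4 than at retained ones, for instance 14.0% of 572 against 25.1% of 255 in the richest. It was also lower in each of the 5 strength classes, with 16.4% of 61 promoters against 34.5% of 383 in the strongest and 11.8% of 262 against 17.6% of 125 in the next. Some classes were small: the weakest held 6 promoters of retained sites (16.7%, against 11.5% of 462), and the lowest GC class held 10. The median distance from summit to E-box was 32.5 bp, against 19.5 bp at retained sites.

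A variant of the E-box, CACGCG or its complement CGCGTG, followed the same order. It was in 23.4% of promoters with a site absent with IFNg+IL4, in 41.9% with a retained site and in 12.1% of all promoters. The looser form CANNTG, which includes CACGTG, was in 59.3%, below the 69.0% of all promoters. All motifs were searched on both strands. TTC and GAA 4 bases apart were in 4.85% of promoters with a site absent with IFNg+IL4, against 4.48% with a retained site and 6.34% of all promoters. Where the site carried a STAT6 peak with IL4 the share was 9.58% of 501 promoters (7.15 to 12.5%), and where it did not, 2.63% of 1066 (1.75 to 3.77%). The AP-1 motif TGANTCA (4.47%, all promoters 6.99%), the C/EBP motif TTGCNNAA (8.36%, all 10.2%) and the IRF-type pattern GAAANNGA (14.6%, all 20.0%) were less frequent than over all promoters. Promoters with a retained site were also below all promoters for these motifs (2.93%, 5.0% and 18.3%). Only CACGTG was compared within classes of GC content. A match describes the letters of the window and is no measured binding site.

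STAT6 was the factor most often found at these sites. With IL4, 1994 of 4636 sites absent with IFNg+IL4 carried a STAT6 peak, 43.0% (41.6 to 44.5%). This was close to the 42.8% of all MYC IL4 2 h peaks and below the 50.3% (47.7 to 52.9%) of retained sites. In the strongest of 5 classes of MYC strength the gap was small, 47.2% of 197 against 49.6% of 975, with 42.9% of 401 at partly retained sites. Retained peaks were also wider (median 488 bp against 236 bp), and the effect of width on the overlap with STAT6 or the other factors was not tested. The sites at gene starts carried STAT6 less often (29.6% of 2359) than the sites elsewhere (64.5% of 1420). With IFNg+IL4, 1585 sites or 34.2% had a STAT6 peak, against 35.6% of all MYC IL4 2 h peaks and 44.7% of retained sites. Of the 1994 sites with STAT6 under IL4, 1432 or 71.8% (69.8 to 73.8%) also had a STAT6 peak with IFNg+IL4. The corresponding share was 74.9% over all MYC IL4 2 h peaks, 73.6% (71.5 to 75.7%) at transient sites, 79.8% (76.7 to 82.7%) at retained sites and 68.7% over all 24927 STAT6 peaks.

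The share of STAT6 peaks kept with IFNg+IL4 was lower at these sites than at retained sites in each of 5 classes of STAT6 strength. In the weakest class 36.8% of 418 were kept, against 57.3% of 171 at retained sites, and in the middle class 79.8% of 361 against 88.5% of 157. In the strongest class the shares were 99.7% of 399 and 100.0% of 99. The sites absent with IFNg+IL4 shared the low retention with the transient sites, at which 36.4% of 297 were kept in the weakest class and 75.8% of 359 in the middle one. STAT6 was thus listed with IFNg+IL4 at most of the sites that carried it with IL4. The absence of MYC there was fixed by the rule, so this share does not compare STAT6 with MYC.

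IRF1 was rarer at these sites than at retained sites. With IFNg+IL4, 347 sites absent for MYC in that condition carried an IRF1 peak, 7.48% (6.74 to 8.28%), against 9.33% of all MYC IL4 2 h peaks, 12.5% of partly retained and 18.8% (lower bound 16.9%) of retained sites. With IFNg alone the share was 2.59% (all peaks 3.49%, retained sites 8.70%), and in untreated cells 1.06% (all peaks 1.11%, retained sites 2.97%). The difference from retained sites held in each of the 5 classes of MYC strength for IFNg+IL4, with 10.2% of 197 against 17.4% of 975 in the strongest. It also held at gene starts (6.99% against 17.9%) and elsewhere (8.38% against 22.8%). Of the 120 sites with an IRF1 peak under IFNg, 118 kept it with IFNg+IL4.

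Over all positions, the shares with CEBPB and JUNB were near those of all MYC IL4 2 h peaks. CEBPB with IFNg was at 18.9% (17.8 to 20.1%) of them, against 20.2% of all MYC IL4 2 h peaks and 21.4% of retained sites. In untreated cells CEBPB was at 6.47% (all peaks 6.86%), and with IFNg+IL4 at 8.78% (all peaks 9.32%). JUNB was at 13.3% in untreated cells (all peaks 14.3%), at 7.74% with IFNg (all peaks 8.49%) and at 7.38% with IFNg+IL4 (all peaks 7.93%). For both factors the pooled intervals overlapped those of retained sites in all 6 libraries. At gene starts alone, the shares were lower than at retained sites in all 6. There CEBPB with IFNg was at 10.8% of 2359 against 16.0% of 896, and untreated JUNB at 3.65% against 6.14%. Away from starts untreated JUNB was at 28.0% against 33.9%. CEBPB there was more frequent than at retained sites in untreated cells (12.4% against 10.4%) and with IFNg+IL4 (17.5% against 15.9%). No peak of any of the other 4 factors overlapped 2147 of the sites (46.3%), near the 45.1% of all MYC IL4 2 h peaks. This share was 35.0% at retained and 50.2% at transient sites. All of STAT6, CEBPB, JUNB and IRF1 were at 78 sites (1.68%), against 2.16% of all MYC IL4 2 h peaks and 2.9% of retained sites.

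**Figure D4:**
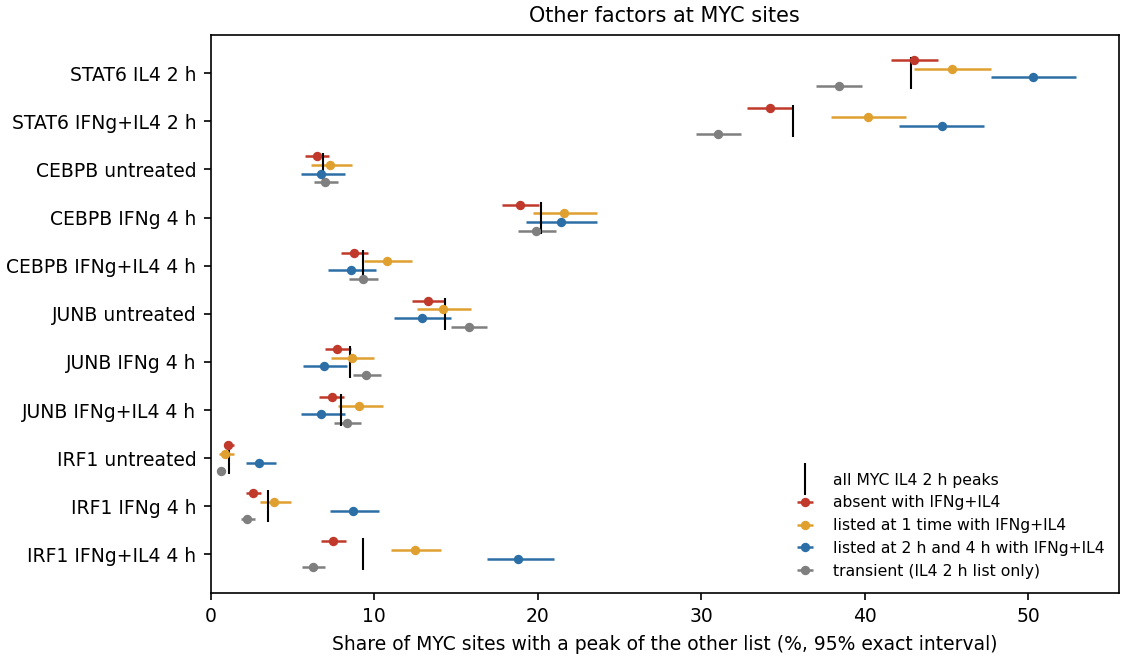
Percentage of MYC sites with a peak of another factor (x axis, points with exact 95% intervals that cover counting error only) for each library of STAT6, CEBPB, JUNB and IRF1 (y axis), by outcome with IFNg+IL4; the vertical ticks mark all MYC IL4 2 h peaks. The sites absent with IFNg+IL4 lie below the retained sites for STAT6 (43.0% against 50.3% with IL4) and IRF1 (7.48% against 18.8% with IFNg+IL4). For CEBPB and JUNB they lie near them when positions are pooled.

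Of 21887 protein-coding genes, 6234 or 28.5% had a site absent with IFNg+IL4 within 20 kb of their span. At 10 genes there were at least 6 such sites. Elf2 had 7, of which 4 were at a start and 1 carried STAT6 with IL4. Gadd45b and its neighbour Lmnb2, the gene of lamin B2, had 6 each, of which 5 were the same sites, and so had Git1, a scaffold gene of ARF signalling, and Inf2. At Git1 none of the 6 carried STAT6, and 4 were at a start.

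For the gene lists, the number of genes with a site within 20 kb is set beside that background, and the share of gained and sustained sites near the list that were absent with IFNg+IL4 beside the mean share of sites in the same 10 strength classes, called equal strength. A gene with a site absent with IFNg+IL4 could also have retained sites. Imp4, Stat6 and Junb had 2 retained sites each, and Pcna, Ccnd3, Mxi1, Il4ra, Irf9, Icam1 and Socs1 had 1 each. At an unchanged signal, the nearest site of 23 of the 74 genes named in the lists would have been listed with IFNg+IL4 at both times, of 31 at 2 h only, of 3 at 4 h only and of 17 at neither. The sites of Eif2s2, Polrmt, Impdh2, Pfkl, Ccnd3, Mxi1, Irf7 and C1qb are among these 17. Their expected fragments, rounded down to whole ones, were no more than can remain unlisted, so no listing was expected there at an unchanged signal. Nucleolar ribosome biogenesis, the classical MYC program, had such a site at 13 of 44 genes (29.5%), near the background of 28.5%. A retained site was near 21 of the 44 (47.7%), against 11.9% of all protein-coding genes. Of 58 gained and sustained sites near the nucleolar genes 19 were absent with IFNg+IL4, 32.8% (upper bound 46.3%), against 38.9% at equal strength. The nearest was 73 bp from the start of Imp4, a processing factor of the small ribosomal subunit, with 17 and 23 fragments (2 h and 4 h of IL4). Ubtf, the upstream binding factor of RNA polymerase I, had one 7449 bp from its start with 27 and 23 fragments.

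Translation genes had such sites at 9 of 32 genes, and 12 of 46 gained and sustained sites near them were absent with IFNg+IL4, 26.1% (14.3 to 41.1%) against 44.1% at equal strength. At Eif5b, an initiation factor gene, the summit lay 4 bp from the start and held 21 and 29 fragments. At Eif2s2, the eIF2 beta subunit, it held 16 and 21, and at Eif3c, an eIF3 subunit, 12 and 13. At Eif4a1, an RNA helicase of initiation, the summit held 12 fragments at 2 h, but its IL4 4 h peak is among those that reached an IFNg+IL4 peak. Mitochondrial protein synthesis and import had such sites at 15 of 34 genes (44.1%), and 40.5% of 42 sites were absent, against 55.9%. They included Tfam, the packaging factor of mitochondrial DNA (18 and 24 fragments, 83 bp from the start), Polrmt, the mitochondrial RNA polymerase (11 and 16), and Tomm20, an import receptor (16 and 15).

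Metabolic growth genes were partly covered. In nucleotide, polyamine and one-carbon metabolism 13 of 34 genes had such a site, among them Adsl, of purine synthesis (20 and 25 fragments), Rrm1, the large subunit of ribonucleotide reductase (15 and 25), and Impdh1 and Impdh2, of guanine nucleotide synthesis (13 and 16, and 9 and 12). In glycolysis it was 13 of 23 (56.5%): Slc2a1, the glucose transporter GLUT1, held 15 and 19 fragments 22 bp from its start, Pfkl, liver phosphofructokinase, 14 and 25, and Aldoa, aldolase, 15 and 23. In these lists 43.2% and 48.8% of gained and sustained sites were absent with IFNg+IL4, against 49.3% and 55.4% at equal strength. Of the cell cycle genes 13 of 28 (46.4%, background 28.5%) had such a site, and 18 of 44 gained and sustained sites were absent with IFNg+IL4, 40.9% (26.3 to 56.8%) against 52.7% at equal strength. They included Ccnd3, cyclin D3 (9 and 15), E2f1 (11 and 16), Pcna, the replication clamp (16 and 15), and Cdc25a, a phosphatase that activates cyclin-dependent kinases (13 and 17). In the MYC and MAX network it was 3 of 13 (23.1%), and 4 of 16 sites were absent (interval 7.27 to 52.4%), against 32.1% at equal strength. The genes were the repressor genes Mxd1 (15 and 18) and Mxi1 (9 and 19), and Mycl (19 and 23), 20902 bp from its start.

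Near IL4 response genes the share of sites absent with IFNg+IL4 was that of sites of equal strength. It was 30 of 45, 66.7% (51.0 to 80.0%), against 65.6%, and 16 of 30 genes (53.3%) had such a site. Il4ra, a chain of the IL4 receptor, had one 1068 bp from its start with 19 and 21 fragments. Stat6 had 3 such sites beside 2 retained ones. The nearest of the 3 lay 139 bp from the start with 19 and 20 fragments. There 10.4 were expected at 2 h with IFNg+IL4 and at most 5 remain unlisted, but 7.58 at 4 h, where at most 7 do. Mrc1, the mannose receptor of alternatively activated macrophages, held 16 and 16, Egr2, a zinc finger factor, 15 and 11, and Klf4, another, 10 and 13. At an unchanged signal these last 3 would have been listed at 2 h, with little to spare at Klf4 (5.47 expected, at most 4 unlisted), but not at 4 h. There 6.06 fragments were expected at Mrc1 (at most 6 unlisted), 4.17 at Egr2 (at most 5) and 4.92 at Klf4 (at most 5).

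Near IFNg response genes the share was lower, 11 of 33 or 33.3% (upper bound 51.8%) against 52.9% at equal strength. Only 7 of 36 genes (19.4%, background 28.5%) had a site absent with IFNg+IL4, while 12 (33.3%, background 11.9%) had a retained site. The 7 included Irf9, a partner of the STAT proteins in interferon signalling (23 and 27 fragments, 149 bp from its start), and Icam1, an adhesion molecule (16 and 20). Socs1 (8 and 15) and Socs3 (14 and 16), inhibitors of cytokine receptors, and Irf7 (13 and 15) were others. With 33 sites the interval is wide and nearly reaches the share at equal strength.

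Macrophage identity and lysosome genes were the lists with the largest share of genes near such sites. Of 25 macrophage identity genes 18 (72.0%) had one. Such sites were the only gained and sustained ones at 13 of the 25, against 3829 of all 21887 protein-coding genes. The 18 included Fcer1g, the signalling chain of Fc receptors (15 and 22 fragments, 4 bp from its start), C1qb, a chain of complement C1q (10 and 18), Mitf (23 and 21) and Csf2ra, a receptor chain for GM-CSF (13 and 13). Of 30 lysosome genes 19 (63.3%) had one: Tfeb, the transcription factor of lysosome genes, held 13 and 22 fragments 54 bp from its start, Lamp1, a lysosomal membrane protein, 14 and 16, Ctsa, cathepsin A, 13 and 21, and Atp6v0d1, a proton pump subunit, 14 and 17. The share of gained and sustained sites absent with IFNg+IL4 was 67.5% and 63.6% in these lists, near the 63.9% and 65.8% at equal strength.

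Inflammatory and AP-1 genes had such sites at 14 of 30 genes, and 22 of 32 sites were absent with IFNg+IL4, 68.8% (50.0 to 83.9%) against 65.0%. Junb had 5, the nearest to its start with 17 and 20 fragments, Atf3 held 21 and 16, Tnf 23 and 17 and Fosb 13 and 21. At Rel, an NF-kB subunit gene, the site held 20 fragments at 2 h and belongs to those whose IL4 4 h peak reached an IFNg+IL4 peak. Marker genes of other hematopoietic and stromal cells had a site at 7 of 25 (28.0%), and genes of other organs at 4 of 25, at or below the background of 28.5%. ChIP-seq of the cultures as a whole does not separate fewer cells with MYC at a site from less MYC per cell.

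**Figure D5:**
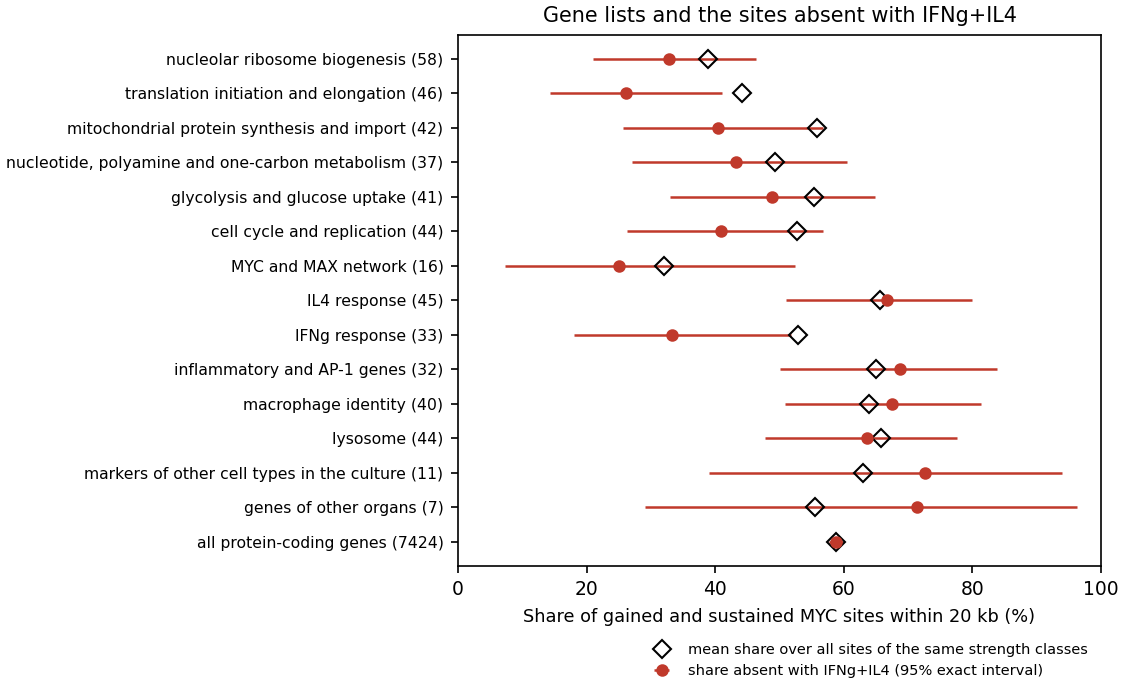
Percentage of gained and sustained MYC sites within 20 kb of each gene list that were absent with IFNg+IL4 (red points with exact 95% intervals for counting error) and the mean percentage over all sites in the same strength classes (open diamonds); the number of sites is in parentheses. The translation list (26.1% against 44.1%) and the IFNg response list (33.3% against 52.9%) lie lowest against their diamonds, while the IL4 response and macrophage identity lists lie near theirs.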

How the data were processed

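ChIP-seq peak lists of 17 libraries from mouse bone marrow-derived macrophages were used, 16 for 5 factors and 1 input, each called from 1 library. The submitters' processing notes name Bowtie2 2.2.6, MACS2 2.1.0.20150731 and the build mm10/GRCm38, and the settings of these tools were not stated. For every peak the authors deposited a fold enrichment, the ratio of summit signal to control. They also deposited −log10 p and −log10 q against the control, and all MYC peaks had a −log10 q of at least 2. The summit offset in bp is the last deposited column. These values rank peaks within 1 list only. Summit fragments and background were solved from fold and Poisson −log10 p after a check on simulated data. Library background was the lowest expected background of a list, and depth relative to the input came from its most common step.

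Only chromosomes 1 to 19, X and Y entered. Peaks that overlap input peaks were removed, 23 from the IL4 2 h list. Gene spans and 17492 of 21887 gene starts came from RefSeq tables of GRCm38.p6. The starts include none on chromosome 18. All 408 genes of the 14 lists matched by symbol, 326 with a start, and sites whose nearest gene lacks a start were left out of shares by distance. Named were the 12 strongest sites with their nearest gene, the 6 genes with most sites within 20 kb, per list up to 6 genes with the nearest site to a start, and the sites at the ends of the list. Some named genes are not reported here. Genes outside this rule are said to be chosen after their values were seen. The sites and lists were chosen with earlier results of these data known. Alternatives were other overlap rules, thresholds, windows and depth limits. Python 3.11.15, pandas 2.3.3, numpy 2.4.6 and scipy 1.17.1 were used.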

Additional observations from a re-analysis of the deposited data

How the results depend on the processing

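The number of sites was within 1.5 times of 4636 under 6 of 8 alternatives. It was 275 when as many of the strongest IL4 peaks were used as the IFNg+IL4 lists hold, and 1245 for sites listable in both IFNg+IL4 libraries at their own background. These limits at their own background, for both libraries or for the 2 h library alone, were chosen after seeing the data.

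The share of gained and sustained sites that were absent with IFNg+IL4 (59.0%) was 77.9% at a reciprocal overlap of 50%, 56.0% with peaks within 500 bp, 52.2% when IL4 peaks needed a −log10 q of 5, 14.3% for the strongest peaks, 53.8% for sites listable at the genome background of both libraries, 34.0% at their own background in both and 52.6% at their own background at 2 h. The share within 1 kb of a start was 64.8% at the reciprocal overlap, 58.5% for the strongest peaks and 65.4% for sites listable in both libraries. It was 55.5% within 500 bp and 72.0% within 5 kb.

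The share with STAT6 under IL4 was 23.0% at the reciprocal overlap, 49.0% within 500 bp, 47.3% for the strongest peaks, 44.9% for sites listable in both and 44.6% at 2 h. The share of these kept with IFNg+IL4 was 58.9% at the reciprocal overlap and 73.9% within 500 bp. The share with CEBPB under IFNg was 10.5%, 25.1%, 17.1% and 20.2% (reciprocal overlap, 500 bp, strongest peaks, genome background). Sites near nucleolar genes were 0.410% of all, 0.727% for the strongest peaks, and 0.108% and 0.733% with windows of 5 and 50 kb.

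No paired analysis was possible because each group was 1 library. Over all shares, 26 of 55 alternative values lay within the 95% interval of the reported share. Among sites listable in both IFNg+IL4 libraries, those absent with IFNg+IL4 stayed below retained sites in several shares: 65.4% of 1000 lay within 1 kb of a start against 75.7% of 1076 retained sites, 8.76% against 18.1% carried IRF1 with IFNg+IL4, and 71.2% against 80.0% of STAT6 peaks were kept. STAT6 with IL4 was at 44.9% against 50.8%. Partly retained sites, at 44.4%, did not lie between them, as they did over all sites (45.3%). With depth from the input step, an alternative chosen after seeing the data, the sites listable at an unchanged signal were 78.0% at 2 h, 44.8% at 4 h and 38.9% at both times, against 74.4%, 30.7% and 26.9%. Which measure follows the true depth more closely was not tested.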

Other observations

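The sites absent with IFNg+IL4 were spread over the genome: between 54.0% (chromosome 8) and 67.5% (chromosome X) of the gained and sustained sites of a chromosome were absent. Among sites that carried a CEBPB peak with IFNg, 390 of 877 (44.5%) still carried it with IFNg+IL4, near the 44.6% of all MYC IL4 2 h peaks and the 45.3% of transient sites. The share was 48.7% at partly retained sites, 39.4% at retained sites and 28.2% of all CEBPB peaks of that list. Of 615 sites with JUNB in untreated cells, 317 (51.5%) had a JUNB peak with IFNg, near the 51.4% of all MYC IL4 2 h peaks. It was 52.4% at transient, 54.5% at partly retained and 43.3% at retained sites, and 46.9% of all untreated JUNB peaks.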
